A study of Homo sapiens with 12 samples.

Results

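H3K9me3 peaks at promoters of protein-coding genes were compared between SMARCA3-knockout (KO) and wild-type (WT) 293T cells. A promoter peak was one that the authors annotated to a protein-coding transcript on chromosomes 1 to 22, with its midpoint within 1 kb of that transcript's start. By this rule the KO list held 753 promoter peaks among 65170 peaks and the WT list held 466 among 46898, so that 1219 of 112068 peaks were promoter peaks. The 293T line is a derivative of human embryonic kidney cells that expresses the SV40 large T antigen. The labels give the KO cells only as SMARCA3_KO and the others as WT, with no further treatment, and whether the knockout is a single clone is not given in the sources used here. Formaldehyde-fixed, sonicated chromatin was precipitated with an anti-H3K9me3 antibody in 3 ChIP libraries per genotype, beside 3 input libraries each, 12 libraries in all, and the series title ties SMARCA3 to the regulation of this mark. The deposited files hold 1 peak list per genotype and no value per library. No comparison between the genotypes therefore had a replicate check, no p-value was computed, the sequencing depth is unknown, and every interval given is a Wilson 95% interval that covers the counting of peaks or genes alone.

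Trimethylation of lysine 9 on histone H3 marks heterochromatin, and it is bound by HP1 proteins that compact chromatin and hold transcription down. At genes it is best known over the clusters of KRAB zinc finger genes, where the methyltransferase SETDB1 is recruited through TRIM28, and over germline genes and silenced repeats. Promoters of widely expressed genes are usually CpG islands, and these normally carry little of the mark. SMARCA3, whose current symbol is HLTF, is a SNF2-family DNA translocase with a RING domain. No peak of either list was annotated to HLTF, and the peak lists do not measure its expression, so they could not check the knockout.

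The sequences of 8 gene starts show what the promoter peaks did and did not cover. Each is the RefSeq promoter window of GRCh38.p14, which runs from 250 bases upstream to 50 bases downstream of a gene's start, printed 5′ to 3′ on the gene's strand, with CpG dinucleotides in capitals. IQCF3, a gene named for its IQ motifs, XCR1, a chemokine receptor, and ZNF117, a zinc finger gene, are shown because peaks of both the KO list and the WT list covered their whole windows. C19orf18 and ZNF454 are shown because a KO peak covered the whole window and a WT peak met part of it. DMRT1, a sex-determination transcription factor, and ZNF479 are shown because a KO peak covered the whole window and no WT peak met it. ZNF420 is shown as a contrast, since no peak of either list met its window although it carried one of the strongest zinc finger promoter peaks by the authors' annotation.
IQCF3 (chr3:51829176-51829475, plus strand): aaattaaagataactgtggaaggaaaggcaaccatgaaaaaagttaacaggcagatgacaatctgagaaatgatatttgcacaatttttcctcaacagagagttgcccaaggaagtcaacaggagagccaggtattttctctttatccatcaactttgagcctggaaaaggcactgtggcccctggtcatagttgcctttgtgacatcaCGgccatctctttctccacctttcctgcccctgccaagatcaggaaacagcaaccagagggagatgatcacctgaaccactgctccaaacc
XCR1 (chr3:46027434-46027733, minus strand): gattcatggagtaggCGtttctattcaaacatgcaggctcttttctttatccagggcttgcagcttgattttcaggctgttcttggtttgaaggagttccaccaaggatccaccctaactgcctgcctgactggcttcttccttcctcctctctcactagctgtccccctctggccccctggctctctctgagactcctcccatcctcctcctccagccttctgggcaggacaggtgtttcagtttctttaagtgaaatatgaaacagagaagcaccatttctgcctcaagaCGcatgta
ZNF117 (chr7:64990987-64991286, minus strand): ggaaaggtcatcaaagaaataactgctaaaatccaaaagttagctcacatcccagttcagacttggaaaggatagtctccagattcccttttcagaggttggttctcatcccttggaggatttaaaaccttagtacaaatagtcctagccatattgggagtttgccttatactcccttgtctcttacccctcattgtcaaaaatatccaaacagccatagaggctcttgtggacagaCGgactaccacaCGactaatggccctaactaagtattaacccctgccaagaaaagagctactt
C19orf18 (chr19:57974485-57974784, minus strand): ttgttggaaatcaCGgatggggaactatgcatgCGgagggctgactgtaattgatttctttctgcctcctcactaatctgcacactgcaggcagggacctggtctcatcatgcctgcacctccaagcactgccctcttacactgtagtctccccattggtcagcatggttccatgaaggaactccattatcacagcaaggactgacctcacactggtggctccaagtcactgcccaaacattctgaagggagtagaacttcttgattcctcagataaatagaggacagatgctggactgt
ZNF454 (chr5:178940948-178941247, plus strand): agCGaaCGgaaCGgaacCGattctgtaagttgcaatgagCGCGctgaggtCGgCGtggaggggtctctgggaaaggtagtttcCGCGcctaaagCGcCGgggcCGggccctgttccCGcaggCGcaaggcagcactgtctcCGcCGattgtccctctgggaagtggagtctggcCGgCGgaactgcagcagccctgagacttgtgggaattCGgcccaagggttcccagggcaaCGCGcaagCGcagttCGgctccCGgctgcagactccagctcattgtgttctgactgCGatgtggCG
DMRT1 (chr9:843039-843338, plus strand): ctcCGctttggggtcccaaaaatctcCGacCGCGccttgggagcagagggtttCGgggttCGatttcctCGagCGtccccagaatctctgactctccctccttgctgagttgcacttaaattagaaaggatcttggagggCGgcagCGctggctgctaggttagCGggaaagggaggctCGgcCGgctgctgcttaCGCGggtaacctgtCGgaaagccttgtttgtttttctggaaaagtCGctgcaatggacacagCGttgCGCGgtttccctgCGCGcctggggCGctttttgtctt
ZNF479 (chr7:57139815-57140114, minus strand): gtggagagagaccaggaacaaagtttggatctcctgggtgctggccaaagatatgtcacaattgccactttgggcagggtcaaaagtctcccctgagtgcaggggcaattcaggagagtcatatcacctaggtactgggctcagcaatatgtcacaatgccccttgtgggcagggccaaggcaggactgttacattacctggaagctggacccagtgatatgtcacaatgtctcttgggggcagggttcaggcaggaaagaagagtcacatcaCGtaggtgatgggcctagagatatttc
ZNF420 (chr19:37078183-37078482, plus strand): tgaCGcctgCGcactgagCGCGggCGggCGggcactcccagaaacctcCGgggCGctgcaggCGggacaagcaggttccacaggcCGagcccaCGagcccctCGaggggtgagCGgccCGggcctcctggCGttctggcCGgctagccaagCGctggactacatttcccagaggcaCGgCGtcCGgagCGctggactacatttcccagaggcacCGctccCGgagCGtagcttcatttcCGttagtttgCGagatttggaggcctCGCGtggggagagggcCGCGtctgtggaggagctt
The windows of IQCF3 and ZNF479 hold 1 CpG each, those of XCR1, ZNF117 and C19orf18 hold 2 each, and those of DMRT1, ZNF454 and ZNF420 hold 23, 27 and 30. All 8 windows have 300 bases. DMRT1, ZNF420 and ZNF479 have 2 starts each in the RefSeq table, of which 1 is shown.

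Most of these promoter peaks lay at transcript starts inside genes. The authors' annotation uses every annotated transcript, and many of these begin far from the 5′ end of the gene. Of the 588 genes with a promoter peak, 581 (98.8%) were found in RefSeq, and a peak was placed at a gene start where its midpoint lay within 1000 bp of a RefSeq start of its gene. Of the KO promoter peaks, 217 lay at a gene start (28.8%, interval 25.7 to 32.2%), 465 lay elsewhere inside the gene and 64 lay outside it. Of the WT promoter peaks, 94 lay at a gene start (20.2%, interval 16.8 to 24.1%), 329 inside and 40 outside the gene. A further 7 KO and 3 WT peaks belonged to genes with no RefSeq match. The word promoter in the authors' classes therefore means the start of some transcript, and a RefSeq gene start for 28.8% of the KO and 20.2% of the WT peaks. A gene has up to 12 such RefSeq starts, and some lie inside the gene. Zinc finger KO peaks at a gene start lay as far as 58.8% along the gene, so the class is not limited to 5′ ends.

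**Figure D1:**
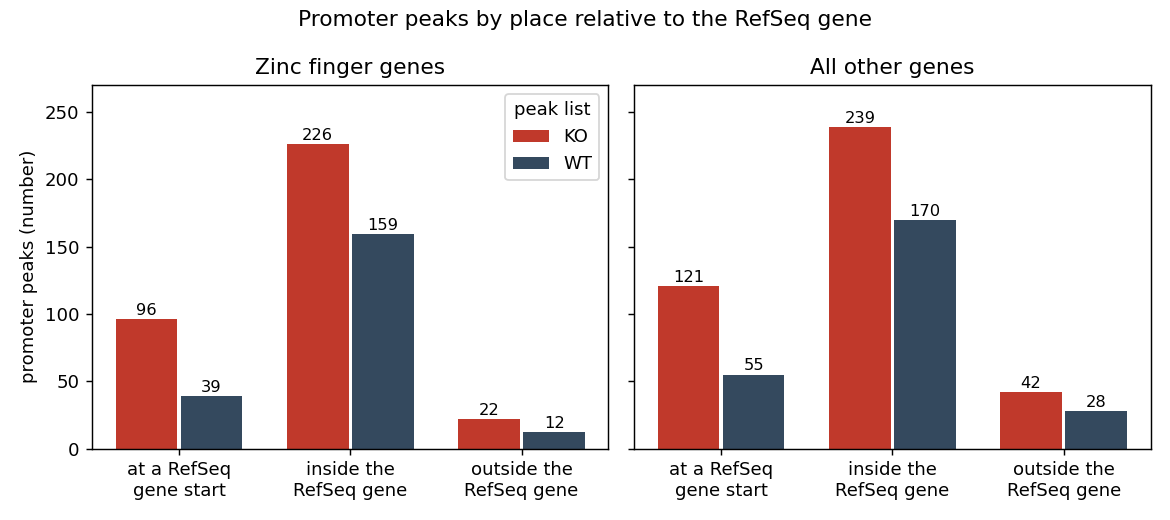
Number of promoter peaks (vertical axis) by place relative to the RefSeq gene, for zinc finger genes (left) and all other genes (right), with the KO list in red and the WT list in dark blue. At gene starts the KO list held 96 zinc finger peaks against 39 in the WT list, and 121 peaks of other genes against 55.

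The KO list held more promoter peaks than the WT list, and the excess was largest at gene starts. The 753 KO and 466 WT promoter peaks gave a ratio of 1.62 (interval 1.44 to 1.81), beside 61828 KO and 42985 WT peaks of all kinds on the same chromosomes, a ratio of 1.44 (interval 1.42 to 1.46). Peaks in the bodies of protein-coding genes had a ratio of 1.30, and protein-coding peaks 1 to 3 kb from a transcript start had a ratio of 1.55, from 1896 KO and 1223 WT peaks. The ratio was 1.77 for the 204 KO and 115 WT peaks within 250 bp of the transcript start and 1.56 for the 549 KO and 351 WT peaks from 250 bp to 1 kb. At gene starts the ratio was 2.31 (interval 1.81 to 2.94), and inside genes it was 1.41 (interval 1.23 to 1.63).

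This excess was smaller when the lists were cut. When the KO list was cut by fold to as many peaks as the WT list, the ratio of promoter peaks was 1.00 (interval 0.882 to 1.14). The ratio at gene starts was then 1.20 (interval 0.915 to 1.58) and that inside genes was 0.957 (interval 0.821 to 1.12). This cut removed only KO peaks, those of lowest fold, so list length and fold cannot be told apart in it. Among peaks at or above a fold of 3.69, the median of both whole lists, the ratio was 1.20 for all promoter peaks. At gene starts it was 1.68 (interval 1.13 to 2.51) and inside genes 1.12 (interval 0.918 to 1.36). The ratio at gene starts stood above the ratio inside genes under both settings, but their intervals overlapped in each. Both settings are subsets of the same 2 lists, so they are no independent support, and the difference was not tested. At a fold of 3.4 to 3.6, the median q-value was 1.71e-07 over 89 KO promoter peaks and 3.50e-06 over 47 WT ones. The part of this difference in the ratios was not tested, and no common scale of the folds in both lists has been shown. The fold and the q-value are the authors' values for each peak within its own list.

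Chromosome 19, which holds most zinc finger clusters, carried 316 KO and 173 WT promoter peaks. Its ratio of 1.83 (interval 1.52 to 2.20) was lower than the ratio of all peaks on that chromosome, 4789 in KO and 2298 in WT, or 2.08 (interval 1.98 to 2.19). Outside chromosome 19 the ratio of promoter peaks was 1.49 (interval 1.29 to 1.73), beside 1.40 for all peaks there. Within each of these portions of the genome the promoter peaks had a ratio close to that of all peaks, while gene starts stood higher, at 2.44 on chromosome 19 and 2.22 elsewhere. Chromosome 7 had the next largest difference in number, 48 KO and 19 WT promoter peaks, and chromosomes 10, 12 and 13 had more WT than KO ones, with intervals that include a ratio of 1.

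More KO than WT promoter peaks were found in one list alone. Of the KO promoter peaks, 432 of 753 (57.4%, interval 53.8 to 60.9%) met no WT peak by 1 bp or more, against 50.3% of all autosomal KO peaks and 44.5% of KO peaks in protein-coding gene bodies. Of the WT promoter peaks, 62 of 466 (13.3%, interval 10.5 to 16.7%) met no KO peak, against 18.4% of all autosomal WT peaks and 17.6% of those in gene bodies. The KO-only share of zinc finger promoter peaks was 62.2%, and their WT-only share was 6.19%, while for other genes these shares were 53.3% and 19.1%. The order of the KO-only shares turned outside chromosome 19, where it was 44.3% for zinc finger and 52.9% for other genes, against 66.8% and 57.1% on chromosome 19. At gene starts, 150 of 217 KO peaks (69.1%, interval 62.7 to 74.9%) met no WT peak and 10 of 94 WT peaks (10.6%) met no KO peak. Inside genes the KO-only share was 51.8%, close to the 50.3% of all peaks. In lists of equal length, the KO-only share was 47.8% and the WT-only share 29.8% over all promoter peaks, and the KO-only share at gene starts was 63.7%.

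**Figure D2:**
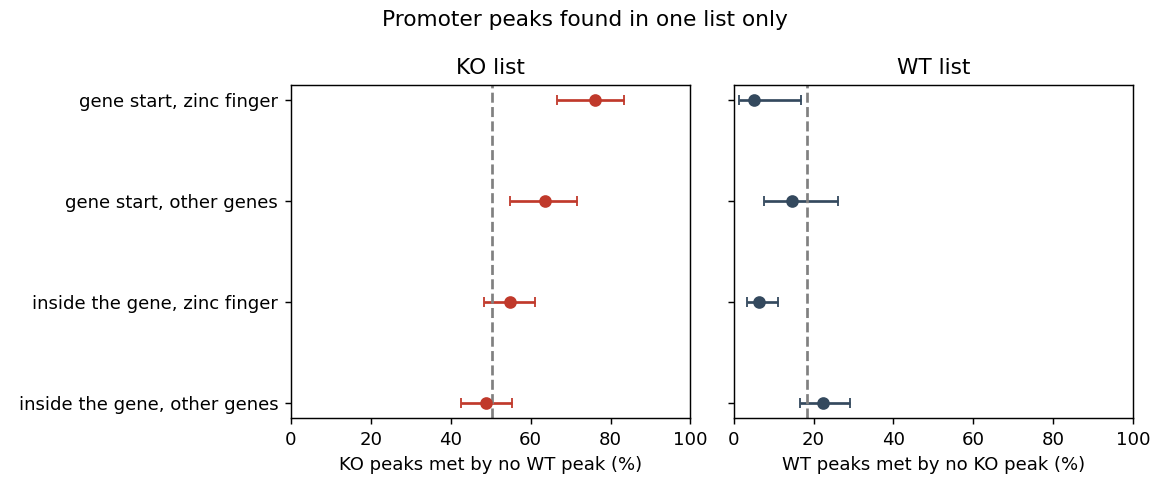
Percentage of promoter peaks that met no peak of the other list, for the KO list (left) and the WT list (right), by place and gene group, with Wilson 95% intervals as bars and the share over all autosomal peaks of that list as a dashed line. Of the 4 groups plotted, zinc finger gene starts stood highest in the KO list, at 76.0%, beside 50.3% of all peaks, and lowest in the WT list, at 5.13%, beside 18.4%. Of the 96 KO zinc finger peaks at gene starts, 77 lay on chromosome 19. The KO-only share of all KO peaks at gene starts was 73.9% there and 65.9% on the other chromosomes. Peaks outside genes are not plotted.

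Promoter peaks lay about as often downstream as upstream of the transcript start. In the KO list 399 midpoints were upstream (53.0%, interval 49.4 to 56.5%) and 354 downstream. In the WT list 254 were upstream (54.5%, interval 50.0 to 59.0%), 210 were downstream and 2 fell on the start itself. Zinc finger promoter peaks were split nearly evenly, with 49.7% upstream in KO and 50.5% in WT, and those of other genes had 55.7% and 57.8% upstream. At gene starts more peaks were upstream, 61.8% in KO (interval 55.1 to 67.96%) and 71.3% in WT (interval 61.4 to 79.4%). The transcript start itself lay inside 39.7% of the KO and 36.1% of the WT promoter peaks, but inside only 26.3% of the KO and 17.0% of the WT peaks at gene starts. The KO-only share was 61.6% of downstream and 53.6% of upstream KO peaks, with intervals of 56.4 to 66.5% and 48.7 to 58.5% that overlap.

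Peaks of both lists were sparse near gene starts, and KO peaks covered more starts than WT peaks did. Over 766 RefSeq starts of zinc finger genes, a KO peak covered 13.8% of the positions 1 kb upstream, 2.09% of the starts and 11.9% of the positions 1 kb downstream. A WT peak covered 6.27%, 0.392% and 6.27% of the same positions. Over 20390 starts of other protein-coding genes, KO peaks covered 0.535% at 1 kb upstream and 0.172% at the start, and WT peaks covered 0.304% and 0.0490%. Both lists dipped near the start, with the lowest coverage of zinc finger genes 250 bp upstream, at 1.44% in KO and 0.261% in WT. For other genes it was lowest downstream, at 0.147% in KO 250 bp and 0.0294% in WT 500 bp from the start. At 10 kb downstream the coverage was 21.0% in KO and 13.1% in WT for zinc finger genes, and 1.28% in KO and 0.848% in WT for other genes. Several starts can belong to 1 gene, so these positions are not independent.

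**Figure D3:**
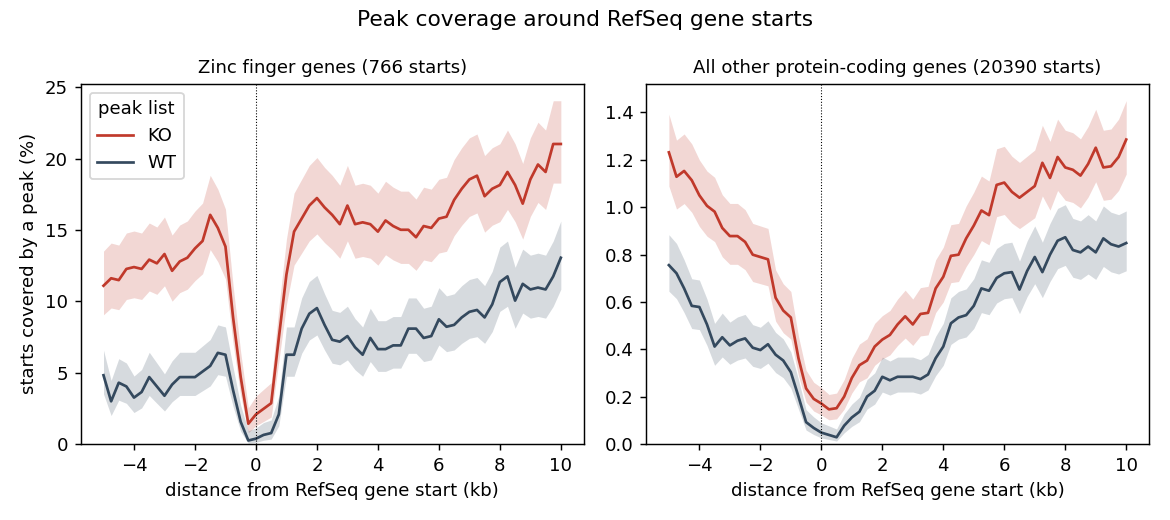
Percentage of RefSeq gene starts covered by a peak (vertical axis, different scales in the 2 panels) against distance from the start in kb, negative upstream, for zinc finger genes (left) and other protein-coding genes (right), with KO in red, WT in dark blue and Wilson 95% intervals shaded. Coverage dips near the start in both lists, for zinc finger genes to 1.44% in KO and 0.261% in WT at 250 bp upstream.

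Few gene starts carried a peak. Of 15101 genes with a RefSeq promoter window, 68 (0.450%, interval 0.355 to 0.570%) had a window met by a KO peak and 19 (0.126%, interval 0.0806 to 0.196%) had one met by a WT peak. Both lists met the windows of 17 genes, the KO list alone those of 51, and the WT list alone those of 2, KRTAP10-5 and KRTAP7-1. KRTAP10-5 also had 1 KO promoter peak and KRTAP7-1 had 2, none of which met the window. In lists of equal length, KO peaks met the windows of 36 genes and WT peaks those of 19, and at or above a fold of 3.69 they met 19 and 10. Zinc finger genes made up 20 of the 68 KO genes and 3 of the 19 WT genes, or 3.64% and 0.545% of the 550 zinc finger genes with a window. The zinc finger genes met in KO alone included ZNF43, ZNF93, ZNF154, ZNF257, ZNF418, ZNF479, ZNF540, ZNF577, ZNF730 and ZSCAN5A, and those met in both lists were ZNF117, ZNF404 and ZNF454. Other genes met in KO alone included the testis factor DMRT1, the histone genes H2BC3 and H3C3 (HIST1H2BB and HIST1H3C in the deposited lists), the GABA receptor subunit gene GABRA4, the imprinted gene MKRN3 and the protocadherin genes PCDHGA3, PCDHGA4, PCDHGA8, PCDHGB4 and PCDHGB6. A window met in KO alone did not mean a gene without WT promoter peaks. ZNF154, PCDHGA3 and PCDHGB6 each also had 1 WT promoter peak that missed the window.

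The windows met by peaks were poor in CpG. The median window of all 21156 held 21 CpG, against 6 CpG in the windows met by a KO peak and 3 CpG in those met by a WT peak. Among genes other than zinc finger genes, KO peaks met 0.608% and WT peaks 0.238% of the windows with 0 to 4 CpG, but 3 and 0 of the 10857 windows with 20 or more CpG. The 21 zinc finger windows met by KO peaks had a median of 13 CpG, beside a median of 22 CpG over all zinc finger windows. The printed windows of DMRT1 and ZNF454, with 23 and 27 CpG, lie above these medians, and those of IQCF3, XCR1 and ZNF117, with 1 or 2 CpG, lie below them. The letters TATAAA, searched on both strands, occurred in 9.51% of all windows, in 12.3% of those met by a KO peak and in 5.26% of those met by a WT peak, the last being 1 of 19.

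**Figure D4:**
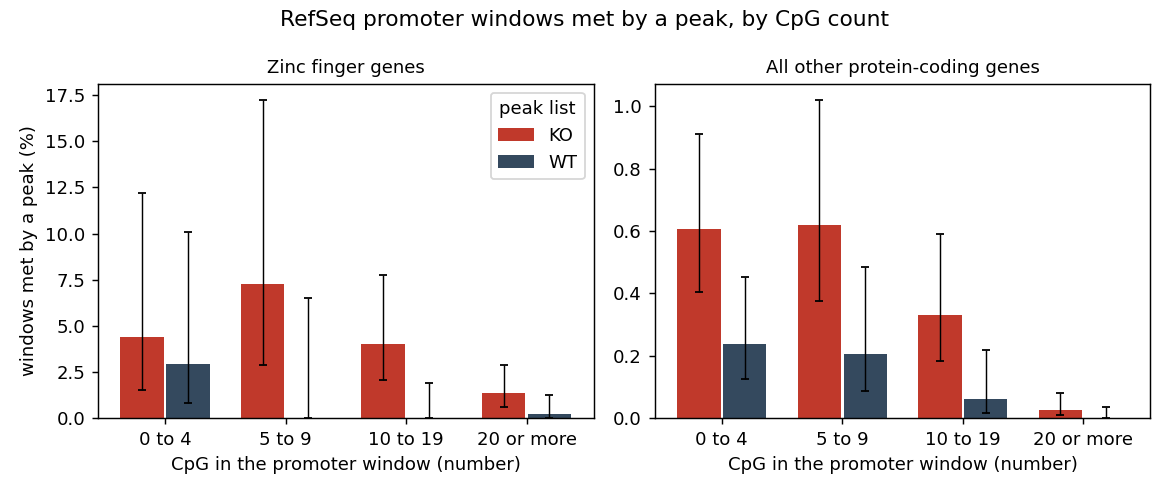
Percentage of RefSeq promoter windows met by a peak (vertical axis, different scales) by the number of CpG in the window, for zinc finger genes (left) and other protein-coding genes (right), with KO in red, WT in dark blue and Wilson 95% intervals. For other genes the share is lowest in the CpG-rich windows, with 3 KO and 0 WT hits among the 10857 windows of 20 or more CpG.

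Zinc finger genes, most of which encode DNA-binding repressors of retroelements and genes, held close to an equal share of both lists. They were 182 of 507 KO promoter genes (35.9%, interval 31.8 to 40.2%) and 123 of 341 WT promoter genes (36.1%, interval 31.2 to 41.3%). The 344 KO and 210 WT zinc finger peaks gave a ratio of 1.64, beside 1.60 from the 409 KO and 256 WT peaks of other genes. On chromosome 19, 274 KO and 150 WT zinc finger peaks gave a ratio of 1.83 (interval 1.497 to 2.23), the same as that of the 42 KO and 23 WT peaks of other genes there. Elsewhere 70 KO and 60 WT zinc finger peaks gave a ratio of 1.17, with an interval of 0.828 to 1.64 that includes 1 and overlaps the one on chromosome 19. Zinc finger promoter peaks were surrounded by other peaks, with a median of 37 KO and 31 WT peaks within 50 kb, against medians of 4 and 3 for other genes. A gene-body peak was present as well in 91.8% of the KO and 82.9% of the WT zinc finger promoter genes, and in 54.2% and 50.5% of the others. How reads that map to several of these similar genes were treated is not given in the sources used here, so values of single zinc finger genes carry that uncertainty.

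The shared zinc finger promoter peaks of highest fold lay mostly toward the 3′ ends of their genes. All zinc finger promoter peaks inside genes had a median position of 51.6% along the gene in KO and 51.9% in WT. ZNF354B on chromosome 5 had a KO peak of fold 9.84 (chr5:178880279-178887857, hg38) and a WT peak of fold 10.00 (chr5:178881104-178887697), centred 96.2% along the RefSeq gene in KO and 97.5% in WT. ZNF195 on chromosome 11 reached a fold of 8.04 in KO and 7.52 in WT at 80.5% and 80.7% along the gene. ZNF420, ZNF700 and ZNF613 on chromosome 19 reached folds of 7.60, 7.14 and 7.06 in KO, against 7.24, 3.6 and 5.82 in WT, with KO midpoints 98.4%, 86.7% and 90.4% along the genes. These peaks of 5 genes sat at internal transcript starts. ZNF84 on chromosome 12, with folds of 6.96 in KO and 6.14 in WT, had its peaks no farther than 40.9% along the gene. ZNF461 had the most promoter peaks, 6 in KO and 5 in WT, followed by ZNF10 with 4 and 5, ZNF382 with 5 and 4, and ZNF841 with 5 and 4. All of those of ZNF461, ZNF10 and ZNF382 lay inside the genes.

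Among zinc finger peaks met by no peak of the other list, the KO ones of highest fold belonged to ZNF417 and ZNF433, both at 5.60, ZNF682 at 5.13, ZNF763 at 5.05, ZNF479 at 4.82 and ZNF224 at 4.82. ZNF479 on chromosome 7 had 3 KO promoter peaks, all at gene starts, and no WT promoter peak. One of them, chr7:57139523-57140918 with a fold of 4.05, covered the whole window printed above. The WT-only zinc finger peaks of highest fold belonged to ZNF763 at 4.32, ZNF286A at 4.09, ZNF177 at 3.85 and ZNF568 at 3.61. Each of these 4 genes also had 1 to 3 KO promoter peaks at other positions, so none of them lacked promoter peaks in KO. Of the genes with the KO-only peaks, ZNF224 also had 3 WT promoter peaks and ZNF763 had 1, while the rest had none.

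Clustered protocadherins, neuronal adhesion proteins expressed from alternative promoters on chromosome 5, had the largest share of members with a promoter peak of any list. Of 53 genes, 18 had one in KO (34.0%, interval 22.7 to 47.4%) and 10 in WT (18.9%, interval 10.6 to 31.4%). Zinc finger genes came close, with 27.4% in KO (interval 24.1 to 30.9%) and 18.5% in WT (interval 15.7 to 21.6%). The intervals of the 2 families overlap in both lists. Of their 30 KO peaks 20, and of their 10 WT peaks 0, were met by no peak of the other list. These shares were 57.4% of all KO and 13.3% of all WT promoter peaks. At gene starts of all genes other than zinc finger genes, protocadherins included, they were 63.6% in KO and 14.5% in WT. Protocadherin peaks lay at gene starts for 17 of the 18 KO genes and all 10 WT genes. Promoter peaks in both lists were found at 9 genes, in KO alone at 9 and in WT alone at 1, which was PCDHB5. PCDHB15 had a KO peak of fold 4.67 located 853 bp downstream of its start and no WT promoter peak. PCDHGB5 had KO folds of 3.12 and 4.25 against 2.84 in WT, and PCDHGA2 had KO folds of 3.28 and 4.18 against 2.68 in WT. PCDHA2 had folds of 3.36 and 2.31 in KO against 4.72 in WT. Peaks in this cluster are close together and share a neighbourhood, so they are not independent of each other.

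Other families had few members with a promoter peak. Each family was set by symbol patterns, which leave out some genes of like function. The chemokine receptor XCR1 and the ubiquitin ligase receptor gene FEM1C, for example, were in no list. Olfactory and taste receptor genes had 2 of 417 in both lists, OR10H3 and OR10H4, neighbours on chromosome 19, with 4 KO and 6 WT peaks that all met a peak of the other list. Keratin and keratin-associated genes, which build hair and epithelial filaments, had 4 of 149 in KO and 2 in WT. KRTAP4-6 on chromosome 17 had KO folds of 3.01, 3.78 and 4.67 and no WT promoter peak. Histone genes had 2 of 85 in KO, HIST1H2BB with a fold of 3.57 and HIST1H3C with a fold of 2.64, neighbours on chromosome 6, and 0 in WT. Genes of drug and steroid metabolism had 4 of 138 in KO and 3 in WT, and ALDH1L1, a folate-metabolism enzyme gene, had 3 KO peaks with folds of 2.32, 4.25 and 2.99 and no WT promoter peak. Solute carriers, the membrane transporters, had 8 of 344 in KO and 3 in WT, led by SLC35A3 with folds of 4.76 in KO and 6.58 in WT. Ion channel genes had 5 of 219 in KO and 2 in WT. Ubiquitin ligases and proteases had 4 of 353 in each list, of which 3 were the same genes. Immune receptor and cytokine genes had 4 of 348 in KO and 2 in WT. Ribosomal protein genes had 1 of 160 in either list, MRPS33 in KO and MRPS5 in WT, and multicopy primate genes had 2 of 263 in KO and 3 in WT. None of 38 housekeeping genes and none of 39 HOX genes had a promoter peak in either list. Beside these, 256 KO and 174 WT promoter genes of the 15703 genes in no list gave 1.63% and 1.11%.

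Germline genes gave the promoter peak of highest fold in KO. HORMAD2, a meiotic chromosome protein gene on chromosome 22, had a KO fold of 10.38 (chr22:30092209-30096476) and a WT fold of 7.87 (chr22:30092381-30096380). The midpoints lay 384 bp in KO and 422 bp in WT downstream of a transcript start that is 12.8% along the gene. The other gene of the 123 that symbol patterns placed in this family was SPATA7, with folds of 3.28 in KO and 4.15 in WT. Both genes thus carried the peak in both lists. They were 1.63% of the family, beside 1.63% in KO and 1.11% in WT of the genes in no list. The testis factor DMRT1 was outside the patterns and had a promoter peak in KO only, so these 2 genes do not stand for all germline genes.

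Genes of the H3K9 methylation machinery had 1 of 33 in KO (3.03%, interval 0.537 to 15.3%) and 4 in WT (12.1%, interval 4.82 to 27.3%). These intervals overlap. The genes in no list had 1.63% in KO and 1.11% in WT. ATF7IP, the partner that stabilises SETDB1, had 4 KO peaks with folds of 4.59, 3.59, 3.28 and 3.20, against 5 WT peaks with folds of 4.01, 3.85, 3.69, 3.69 and 4.09. MORC2 and FAM208A, which act in silencing by the HUSH complex, had 1 WT peak each, with folds of 3.93 and 2.10. The H3K9 demethylase gene KDM3B had 1 with a fold of 2.87. The WT peaks of MORC2 and FAM208A were met by KO peaks of another class or gene, and that of KDM3B was met by none. Counted over peaks of any class, ATF7IP had 28 in KO and 16 in WT, FAM208A 4 and 1, and MORC2 3 and 1. KDM3B had 0 in KO and 1 in WT.

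Outside these families, the KO-only peaks of highest fold belonged to DHRS2, a dehydrogenase gene, at 4.87, FAM172A at 4.78, SERPINE2, a protease inhibitor gene, at 4.67, and C19orf18 at 4.46. DHRS2 had 4 KO promoter peaks, with folds of 4.87, 2.86, 2.96 and 3.07, all inside the gene and none met by a WT peak. C19orf18 had 2 KO peaks at its gene start with folds of 5.36 and 4.46, and the first, chr19:57973769-57974912, met a WT peak of fold 3.70. The SERPINE2 peak had no other KO peak within 50 kb. The WT-only peaks of highest fold belonged to FEM1C, a ubiquitin ligase receptor gene, at 4.74, and to BCAS3, COL21A1 and DCAF6, each at 4.24. The FEM1C peak lay 728 bp upstream of the transcript start, and the other 3 lay inside their genes. BCAS3 also had 1 KO promoter peak, with a fold of 2.81. Thus the one-list peaks of highest fold in both lists stayed under the folds of the strongest shared ones.

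Shared peaks of other genes were led after HORMAD2 by PCDH9, a protocadherin outside the clusters, with folds of 7.88 in KO and 7.87 in WT, 35.3% along the gene in both lists. FAM3B with a KO fold of 7.76 and CERS3 with a KO fold of 7.60 had KO peaks that WT peaks met, but no WT promoter peak of their own. AK5, an adenylate kinase gene, reached 7.06 in KO and 4.34 in WT, and AGGF1, an angiogenic factor gene, reached 6.93 in KO and 5.80 in WT. The calcium channel gene CACNA1A and TIGD7, a gene derived from a transposase, had 3 peaks in each list. The folds of TIGD7 were 3.15, 3.29 and 2.54 in KO and 3.12, 4.08 and 2.76 in WT, and every one of these peaks met a peak of the other list.

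Counted by gene, 247 genes had a promoter peak in the KO list only and 81 in the WT list only, while 260 had one in both. Zinc finger genes were 80 of the first, 21 of the second and 102 of the third. In lists of equal length the first 2 counts were 132 and 122. The KO list was the longer, with 61828 autosomal peaks against 42985 in WT. Of all these peaks, 50.3% in KO and 18.4% in WT met no peak of the other list. The same count of genes over peaks of all classes was not made, so the gene counts are not set apart from the list lengths. A gene with no promoter peak in a list was often not free of the mark there. Of the 247 genes in the KO list only, 151 had a WT peak of another class and 17 had a promoter peak that a WT peak met. Of the 81 genes in the WT list only, 66 had a KO peak of another class and 37 had a promoter peak that a KO peak met.

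The peaks themselves were of similar size in the lists. KO promoter peaks had a median width of 554 bp and WT ones of 550 bp, and the median fold was 3.51 in KO (range 1.84 to 10.38) and 3.70 in WT (range 2.07 to 10.00). Peaks at gene starts were weaker and narrower, with median folds of 3.29 in KO and 3.48 in WT and median widths of 475 and 473 bp. No other peak lay within 50 kb of 49 KO and 40 WT promoter peaks, none of which belonged to a zinc finger gene. At the limit of the 1 kb rule, the KO peaks just inside belonged to MEP1B at −999 bp and ZDHHC14 at −995 bp and those just outside to CYYR1 and ZNF540, both at −1003 bp. The WT peaks just inside belonged to BPIFA2 and ZNF586, both at 997 bp, and those just outside to ZFP28 at 1001 bp and SLC25A2 at 1010 bp.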

How the data were processed

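The authors deposited 1 annotated peak list per genotype, from 3 ChIP and 3 input libraries each. Per the submitters' processing notes, HISAT2 and the build hg38 were used. The peak caller, the use of inputs, the treatment of multiply mapping reads and the way replicates entered a list stand in none of the sources used here. Per the file headers, each peak has the authors' fold enrichment (a ratio), q-value, region class, transcript and distance. The deposited distance score runs from the peak's midpoint to the transcript start, negative upstream, which held within 1 bp for 100% of peaks.

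Peaks were counted with Python 3.11.15, pandas 2.3.3, numpy 2.4.6 and scipy 1.17.1, and shared peaks met by at least 1 bp. The overlap and interval functions were tested on simulated data. A ratio's interval is the Wilson interval of the KO share, turned into a ratio. Gene positions and promoter sequences come from RefSeq (GRCh38.p14), and a peak meets a window by 1 bp. Gene families were set by symbol patterns, and zinc finger genes by symbols such as ZNF, ZFP and ZSCAN with a number.

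Named genes are, for zinc finger and other genes apart, those of the 6 KO-only, 4 WT-only and 6 shared peaks of highest fold and the 4 with most peaks, up to 4 per family by fold, all H3K9 machinery members with a promoter peak, and the 2 peaks per list at either side of 1000 bp. The members, lists and rules were chosen with earlier results of these data known. The place relative to RefSeq, the windows, CpG and TATAAA counts, the profile and the results at gene starts were chosen after seeing the data, as were the 8 printed windows, of which C19orf18, ZNF479 and ZNF420 are named by the rule and the others are not. The genes listed as met at their windows were likewise picked after their values were seen. Alternatives changed the overlap, the fold threshold, the list length, the promoter window, the zinc finger rule and chromosome 19.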

Additional observations from a re-analysis of the deposited data

Results flagged for a closer look

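Chromosome X lies outside the comparison, which covers chromosomes 1 to 22. By the same distance rule the KO list held 3 promoter peaks of protein-coding genes there, at FANCB, CFAP47 and ZNF630, and the WT list held 5, at WWC3, CTPS2, NXT2, TENM1 and ADGRG4. The 5 WT peaks are listed because they lie in data that the comparison did not use. No gene was in both sets, but with so few peaks this says little. Whether a peak of the other list met these peaks was not examined. The KO folds lay between 3.96 and 4.21 and the WT folds between 3.31 and 3.69. The ratio of KO to WT was 0.793 over all 2749 KO and 3467 WT peaks on chromosome X, against 1.44 on the other chromosomes used.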

How the results depend on the processing

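No paired analysis was possible because the lists hold no value per library, and for the same reason leaving out each replicate was not run. The overlap that counts as shared does not enter the counts of genes, so it was not run for them. Of 71 alternatives over 14 results, 32 stayed near the main value, 38 moved and 1 turned the direction. In lists of equal length the KO to WT ratio was 1.00 for promoter peaks, 1.20 at gene starts and 0.957 inside genes, where the direction turned. The KO-only share was 47.8%, the WT-only share 29.8%, the genes in KO only 132 and in WT only 122, the zinc finger share of KO genes 42.7%, and KO peaks met the windows of 36 genes. At or above the pooled median fold the ratios were 1.20, 1.68 and 1.12, the KO-only share 51.2%, the WT-only share 28.6%, the genes in KO only 112, the zinc finger shares 49.6% in KO and 44.3% in WT, and KO and WT peaks met the windows of 19 and 10 genes. Requiring 50% of both peaks to overlap gave KO-only shares of 76.4% and, at gene starts, 82.9%, and a WT-only share of 58.8%. Counting a peak within 1 kb as shared gave 44.5%, 56.2% and 8.37%. The class within 250 bp gave 125 genes in KO only, 49 in WT only, a zinc finger share of 44.2% in KO and 49.6% of WT peaks upstream. Defining a gene start as within 250 bp gave a ratio of 4.00 and a KO-only share of 77.5%. All promoter classes to 3 kb gave a KO-only share of 53.6%, 519 and 134 genes in KO only and WT only, and zinc finger shares of 20.6% in KO and 19.7% in WT. Without chromosome 19 the KO-only share was 51.5% and the zinc finger shares were 13.5% in KO and 14.8% in WT. The cause of these shifts was not tested beyond what each alternative removes. Peaks are counted, not the mark itself: a weak region can drop out of 1 list, the fold has no scale shown to be common to both lists, and the sequencing depth behind each list is unknown.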

Other observations

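A list of 30 imprinted genes, of which the parental copies differ in activity, was made after the members' names were seen. Its counts therefore support nothing. Over all genes, the KO list held 507 promoter genes and the WT list held 341. Promoter peaks were found at 8 of the 30 genes in KO, namely MKRN3, ZNF331, ZIM2, PEG3, SLC22A2, SGCE, PEG10 and MEST, and at 1 in WT, SGCE. The KO peaks of MKRN3, ZNF331, PEG3 and MEST included ones at gene starts, for 4 genes in KO against 0 in WT. ZIM2, on chromosome 19 beside PEG3, had 4 KO peaks with folds of 4.67, 2.99, 3.43 and 3.13. SGCE was the only one of the 8 genes with a peak met by the other list, with a fold of 3.16 in KO and 2.11 in WT. Of all KO promoter peaks, 57.4% met no WT peak. SGCE and PEG10 are also neighbours, on chromosome 7, so these genes are not independent of each other.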
